A study of Mus musculus with 8 samples.

Results

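The 10 genes described here were 7 claudins (Cldn1, Cldn2, Cldn3, Cldn4, Cldn6, Cldn7 and Cldn12), occludin (Ocln), the scaffold gene Tjp1 and Epcam, chosen by gene symbol out of 23471 entries. Each symbol occurred once in the table, and all 10 genes passed the filter on low values. RNA sequencing was done on cultured hepatoblasts (iHB), the bipotent precursors of the fetal liver, and on cells differentiated from them in vitro to hepatocytes (iHP) or to biliary epithelial cells (iBEC). The hepatoblasts came from E14.5 mouse livers (embryonic day, B6;129 mixed strain) and were grown on collagen. iHP had received oncostatin M at 12.5 ng/ml for 5 days, and iBEC had been kept on Matrigel for 14 days, as the labels give it. The methods of the study state another length of the oncostatin M treatment. Control cells were labelled wild type. The other cells were labelled Lats1-/-;Lats2f/fl;Alb-cre and are called L1L2_Alb here, after the labels: Lats1 is lost in the whole animal, and Cre driven by the albumin promoter acts on Lats2 in cells of the hepatoblast lineage. There were 8 libraries, with 1 control library at each of the 3 stages, 1 L1L2_Alb iHB library, 2 L1L2_Alb iHP libraries and 2 L1L2_Alb iBEC libraries. No source used here says that libraries of a condition came from separate embryos or cultures, so the spread between them may be technical. In the tests between genotypes and between stages, the p-values measure this spread together with how far the genotype difference varied between stages. In the tests with 1 mean per condition, they measure the spread within the L1L2_Alb iHP and iBEC pairs.

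Claudins are small membrane proteins that line up between neighbouring epithelial cells and form the strands of the tight junction, which sets how easily ions and water pass between cells. Occludin lies in the same strands, and ZO-1, the product of Tjp1, is the scaffold under the membrane that ties the strands to actin. Some claudins seal the gap, whereas others, such as claudin-2, form pores. EpCAM is an adhesion protein of simple epithelia that binds claudin-7. In the liver, tight junctions close off the bile canaliculi between hepatocytes and the lumen of the bile ducts. LATS1 and LATS2 are the kinases of the Hippo pathway that hold back YAP and TAZ, which act on genes through TEAD factors.

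For orientation on the loci, the 250 bases before the annotated start are shown for Cldn3 and Cldn4, which are neighbours on chromosome 5 but differed in their values, and for Epcam. The sequences are from RefSeq on the GRCm38.p6 assembly and are written from 5′ to 3′ on the strand of the gene. Capitals mark the E-box CAGGTG on either strand (CACCTG on the other), the site form bound by the repressors SNAI1 and ZEB1.
Cldn3, chr5:134985964-134986213, plus strand: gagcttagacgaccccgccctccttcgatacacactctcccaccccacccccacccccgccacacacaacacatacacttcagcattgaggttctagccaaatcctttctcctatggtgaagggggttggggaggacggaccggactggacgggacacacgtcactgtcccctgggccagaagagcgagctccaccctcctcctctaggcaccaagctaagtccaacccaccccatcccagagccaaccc
Cldn4, chr5:134946935-134947184, minus strand: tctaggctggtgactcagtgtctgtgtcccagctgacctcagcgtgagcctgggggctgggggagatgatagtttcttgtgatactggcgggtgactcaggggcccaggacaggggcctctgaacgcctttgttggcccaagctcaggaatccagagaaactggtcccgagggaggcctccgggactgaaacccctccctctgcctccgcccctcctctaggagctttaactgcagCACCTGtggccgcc
Epcam, chr17:87635729-87635978, plus strand: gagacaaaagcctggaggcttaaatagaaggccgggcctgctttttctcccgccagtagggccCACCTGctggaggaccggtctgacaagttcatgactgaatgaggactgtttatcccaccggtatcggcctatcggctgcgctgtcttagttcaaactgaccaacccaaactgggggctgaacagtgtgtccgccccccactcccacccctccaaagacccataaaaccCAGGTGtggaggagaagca
In windows from 250 bases before to 50 bases after a start, this E-box occurred in 6 of the 10 genes (Cldn3, Cldn4, Cldn6, Cldn7, Ocln and Epcam, in Cldn3 only after the start, at 32), beside 22.6% of 27025 genes with such a window. The TEAD core GGAATG, which reads CATTCC on the other strand, occurred in 3 of the 10 (Cldn2, Cldn6 and Cldn7), beside 16.6% of all genes. Neither was found in the windows of Cldn1, Cldn12 or Tjp1. These are matches of letters only, and of the 4 genes called between genotypes below only Cldn3 held this E-box.

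The values are RPKM (reads per kilobase of gene, scaled to the read total of the library), so that levels can be compared between genes. The libraries held 18436865 to 33229075 reads, recovered from the steps of the lowest values. Whole-gene RPKM of the targeted genes was not lower in L1L2_Alb, at 5.38 to 11.2 in control and 7.12 to 22.7 in L1L2_Alb for Lats1, and at 6.90 to 10.1 and 10.9 to 27.6 for Lats2. The table holds no exon values, so the deletion itself could not be checked from it, and the groups are those of the labels. Over all tested genes the median difference between genotypes was 0.06 on the log2 scale. Among the stage labels, Spp1, a marker of bile duct cells, stood at 23271 RPKM in control iBEC against 1706 in control iHB, whereas the duct keratin Krt7 stood at 62.3 against 399.6 and Krt19 at 83.7 against 273. The markers therefore did not all follow the stage label.

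Between genotypes, 4 of the 10 genes changed over the 3 stages, beside 9.57% of the 13421 tested genes. Cldn1 and Cldn3 fell and Cldn12 and Tjp1 rose. The 2 that rose stand beside 6.2% of tested genes called higher, and the 2 that fell beside 3.37% called lower. The unadjusted p was under 0.05 for 5 of the 10, beside 26.3% of all. Cldn4 was higher and Cldn2 lower in every L1L2_Alb library than in the control of its stage, but neither passed the test. The remaining 4 genes, Cldn6, Cldn7, Ocln and Epcam, went in opposite directions at different stages. The test was limma on log2(RPKM + 1) with stage as a block, adjusted over all tested genes by the Benjamini-Hochberg method at a threshold of 0.05, and differences below are on this log2 scale unless RPKM is named. This scale understates the change of genes of low level, such as Cldn1.

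**Figure D1:**
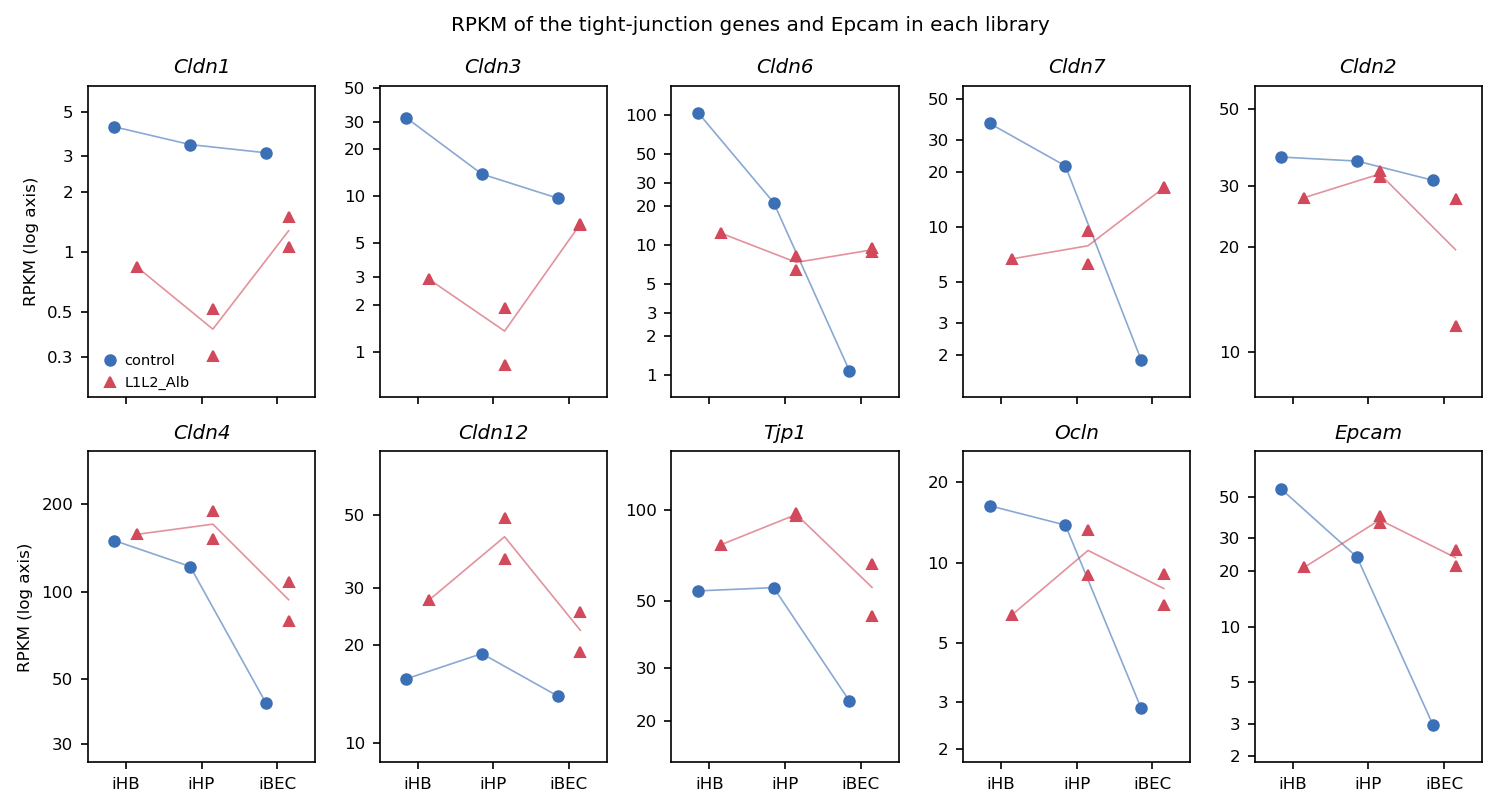
RPKM (log axis, scaled to each gene) of the 10 genes in each library by stage, with circles for the 3 control libraries, triangles for the 5 L1L2_Alb libraries and lines joining the means of a genotype. Cldn1 and Cldn3 lie below every control library in L1L2_Alb and Cldn12 above, while Cldn6, Cldn7, Ocln and Epcam are lowest in the control iBEC library.

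Cldn3, a sealing claudin of bile duct and hepatocyte junctions, had the largest difference of the 10 genes. Its level in control cells was 32.0 RPKM in iHB, 13.9 in iHP and 9.72 in iBEC. In L1L2_Alb it was 2.92 RPKM in iHB, 0.816 and 1.90 in iHP, and 6.58 and 6.68 in iBEC. All 5 L1L2_Alb libraries lay below all 3 control libraries, which 3.7% of tested genes did. Control exceeded L1L2_Alb 10.9-fold in iHB, 17.0-fold and 7.33-fold in iHP, and 1.48-fold and 1.46-fold in iBEC, so the gap was narrow in iBEC. The L1L2_Alb iHP values rest on 19 and 51 reads, against 491 in the control, so their folds carry a wide counting error. The fitted difference was -2.00 (SE 0.45, limma adjusted p = 0.0317, n = 3 control and 5 L1L2_Alb libraries). The call was lost without either iHP replicate (adjusted p = 0.0636 without replicate 1 and 0.0575 without replicate 2), without the iHB or the iHP stage, with the mean of the libraries of a condition (0.0666) and with no filter on low values (0.0885).

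Cldn1, a claudin needed for the barrier of the skin and present in liver junctions, was at a low level in all cells. Control libraries held 4.22 RPKM in iHB, 3.44 in iHP and 3.13 in iBEC. L1L2_Alb libraries held 0.839 RPKM in iHB, 0.301 and 0.521 in iHP, and 1.06 and 1.49 in iBEC. As for Cldn3, no L1L2_Alb library reached a control library, and iHP were the lowest. The L1L2_Alb iHP values rest on 18 and 36 reads, against 312 in the control, which leaves them with a wide counting error but far from the control. The fitted difference was -1.33 (SE 0.24, limma adjusted p = 0.0134, lower in 5 of 5 libraries), and it was no longer past the threshold without the iHB or the iHP stage.

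Cldn12, an unusual claudin without the C-terminal motif by which most claudins bind ZO proteins, moved the other way. Control libraries held 15.7 RPKM in iHB, 18.8 in iHP and 13.9 in iBEC. L1L2_Alb libraries held 27.5 RPKM in iHB, 36.8 and 49.2 in iHP, and 19.1 and 25.3 in iBEC. Every L1L2_Alb library lay above every control library, which 9.18% of tested genes did, although the lower iBEC library was only just above the control iHP library. The fitted difference was 0.85 (SE 0.20, limma adjusted p = 0.0341, higher in 5 of 5). The call was lost under upper-quartile scaling, without iHP replicate 1, without iBEC replicate 2, without any 1 of the stages and when low genes were kept in (adjusted p = 0.0613).

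Tjp1 held 53.9 RPKM in control iHB, 55.3 in control iHP and 23.3 in control iBEC. L1L2_Alb libraries held 76.6 RPKM in iHB, 97.7 and 95.5 in iHP, and 44.4 and 66.4 in iBEC. Each was above the control of its stage, but the groups overlapped, since L1L2_Alb iBEC replicate 1 lay below control iHB and iHP. The fitted difference was 0.86 (SE 0.20, limma adjusted p = 0.0351, higher in 5 of 5). This call was near the threshold: it was lost under quantile normalization (adjusted p = 0.0615), without iHP replicate 1 or 2 or iBEC replicate 2, without any 1 of the stages, with the mean of the libraries of a condition (0.0523) and with no filter on low values (0.0647).

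Cldn4, a sealing claudin of ducts and other simple epithelia, had the highest level of the 10 genes in every library. Its control values were 149.7 RPKM in iHB, 122 in iHP and 41.5 in iBEC. Its L1L2_Alb values were 157 RPKM in iHB, 189 and 152 in iHP, and 79.6 and 108 in iBEC. The iHB libraries were nearly equal and the iBEC libraries 1.92-fold and 2.60-fold above their control, and the fitted difference of 0.61 (SE 0.23, limma adjusted p = 0.141, higher in 5 of 5) did not pass the test. Cldn3 and Cldn4 thus lay side by side on the chromosome with differences of -2.00 and 0.61. The ratio of Cldn4 to Cldn3 RPKM was 4.27 to 8.78 in control and 12.1 to 232 in L1L2_Alb libraries. The highest ratio rests on 19 reads of Cldn3 in L1L2_Alb iHP replicate 1.

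Cldn2, the pore-forming claudin that lets cations and water through, was the most even of the claudins. Control libraries held 36.3 RPKM in iHB, 35.4 in iHP and 31.2 in iBEC. L1L2_Alb libraries held 27.8 RPKM in iHB, 33.1 and 31.9 in iHP, and 11.9 and 27.5 in iBEC. The groups overlapped, and the low value was that of iBEC replicate 1 alone. The fitted difference was -0.42 (SE 0.27, limma adjusted p = 0.379, lower in 5 of 5). A difference in 5 of 5 libraries was common, with 22.9% of tested genes higher and 10.1% lower in all of them.

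**Figure D2:**
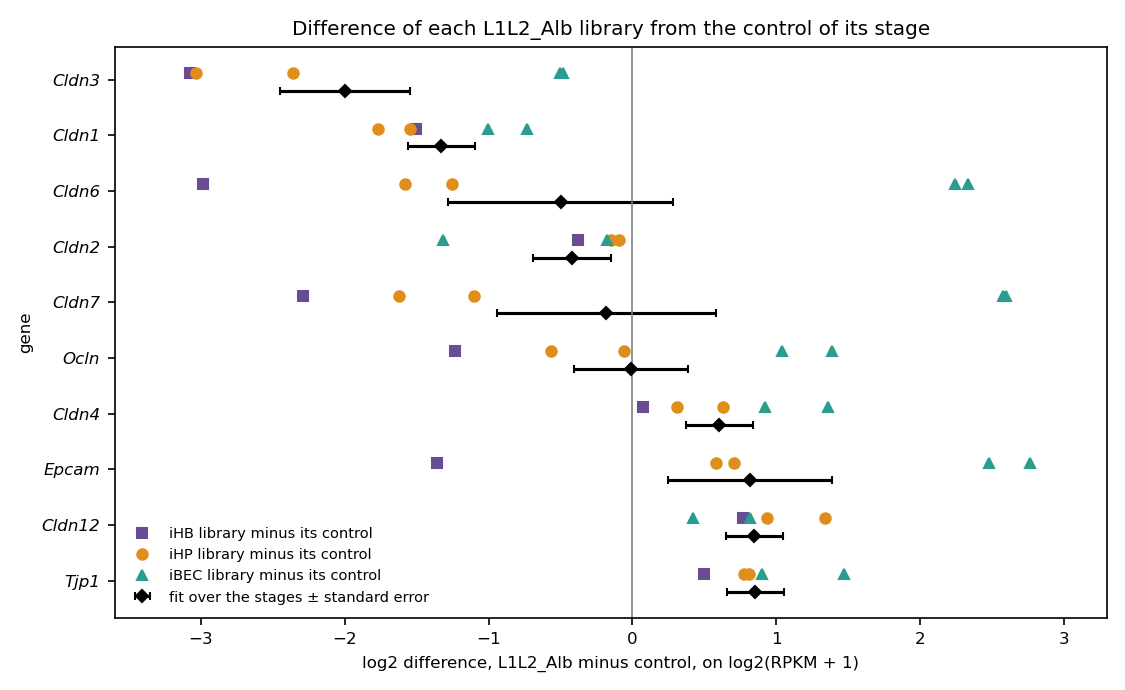
Difference of each L1L2_Alb library from the control library of its stage on log2(RPKM + 1), with squares for iHB, circles for iHP and triangles for iBEC, and black diamonds with bars for the fit over the stages and its standard error. Cldn1 and Cldn3 lie left of 0 and Cldn4, Cldn12 and Tjp1 right of it at every stage, whereas the iBEC triangles of Cldn6, Cldn7, Ocln and Epcam lie on the other side of 0 from the iHB squares.

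The other 4 genes were lower in L1L2_Alb iHB than in control iHB and higher in L1L2_Alb iBEC than in control iBEC. Cldn6, a claudin of embryonic epithelia that is largely silent in the adult, had the widest range. Control cells held 104.8 RPKM in iHB, 21.2 in iHP and 1.08 in iBEC, a 97.1-fold range that rests on 4491, 894 and 54 reads. L1L2_Alb cells held 12.4 RPKM in iHB, 6.41 and 8.29 in iHP, and 9.49 and 8.86 in iBEC. Its level thus stayed within 6.41 to 12.4 RPKM at all stages of L1L2_Alb. Relative to the control of the stage, the difference in L1L2_Alb was -2.99 on the log2 scale in iHB, -1.42 (SD 0.23, n = 2) in iHP and 2.29 (SD 0.06, n = 2) in iBEC.

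Cldn7, a claudin of the lateral membrane and the partner of EpCAM, followed the same course. Control cells held 36.7 RPKM in iHB, 21.5 in iHP and 1.89 in iBEC. L1L2_Alb cells held 6.71 RPKM in iHB, 6.30 and 9.49 in iHP, and 16.2 and 16.5 in iBEC. The difference was -2.29 in iHB, -1.36 (SD 0.37) in iHP and 2.59 (SD 0.02) in iBEC on the log2 scale. In RPKM, the iBEC libraries were 8.60-fold and 8.74-fold above their control for Cldn7, close to the 8.80-fold and 8.21-fold of Cldn6.

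Epcam, which marks hepatoblasts and bile duct cells and is lost from mature hepatocytes, held 55.0 RPKM in control iHB, 23.6 in control iHP and 2.96 in control iBEC. L1L2_Alb libraries held 20.8 RPKM in iHB, 35.9 and 39.2 in iHP, and 25.9 and 21.1 in iBEC. Unlike Cldn6 and Cldn7, Epcam was already above its control in both iHP libraries, by 0.65 (SD 0.09, n = 2) on the log2 scale. The difference was -1.36 in iHB and 2.62 (SD 0.20, n = 2) in iBEC. Its values rest on 203 reads in control iBEC and on 1036 or more in every other library.

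Ocln had the same order with smaller steps. Control cells held 16.3 RPKM in iHB, 13.8 in iHP and 2.85 in iBEC, and L1L2_Alb cells held 6.39 in iHB, 9.01 and 13.2 in iHP, and 9.07 and 6.92 in iBEC. The difference was -1.23 on the log2 scale in iHB and 1.22 (SD 0.24, n = 2) in iBEC. In iHP the difference of -0.31 (SD 0.36) was within the spread of the pair.

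Over all stages these opposing differences left fitted values of -0.50 (SE 0.78) for Cldn6, -0.18 (SE 0.76) for Cldn7, -0.01 (SE 0.40) for Ocln and 0.82 (SE 0.57) for Epcam. None passed (limma adjusted p = 0.745, 0.913, 0.993 and 0.417). The difference of the genotype effect between stages was tested by limma's moderated F test with 1 mean per condition, which called 0 of 13421 genes and so none of the 10. The unadjusted p was under 0.05 for 5 of the 10 (Cldn3, Cldn6, Cldn7, Ocln and Epcam), beside 733 genes or 5.46% of all. For Cldn6 the unadjusted p was 5.27e-05. Its adjusted p of 0.122 was the smallest value reached by any gene, but it was not reached by Cldn6 alone. Cgn, of the tight junction list below, had the same adjusted p in this F test at an unadjusted p of 5.97e-05. The adjusted p was 0.148 for Cldn7, 0.264 for Epcam, 0.541 for Cldn3 and 0.613 for Ocln. A course of lower in iHB and iHP and higher in iBEC, as for Cldn6, Cldn7 and Ocln, was shown by 12.4% of tested genes, and that of Epcam by 5.86%.

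The iBEC differences all rest on 1 control library, which stood low in other epithelial genes too. The summed RPKM of 8 simple epithelial markers was 948 in control iBEC against 3159 in control iHB and 2615 in control iHP. Most of that sum was Krt8 and Krt18, at 400 and 485 in control iBEC. Cdh1 was low there as well (37.9 against 155.6 in control iHB), but Esrp2 was not (24.9 against 22.1). In L1L2_Alb it was 4953 in iHB, 3948 and 4495 in iHP, and 1397 and 2420 in iBEC, which is 1.47 and 2.55 times the control in iBEC. Over the stages none of the 7 tested markers passed the test, with Krt18 at 0.85 (SE 0.23, adjusted p = 0.0542) and Krt8 at 0.78 (SE 0.27, adjusted p = 0.112), and their median was 0.16. Hepatocyte genes did not stand low in this library. The sum of 10 hepatocyte markers was 17122 RPKM in control iBEC, against 8606 in control iHB and 13000 in control iHP. It reached at most 12821 RPKM in L1L2_Alb. Alb stood at 6162 RPKM in control iBEC against 2485 in control iHB, and Hnf4a at 99.5 against 48.4. In bulk RNA, fewer epithelial cells and less RNA per cell cannot be told apart, and what set these levels was not tested. As deposited, the median of all tested genes also lay 0.25 above control in iBEC, against -0.09 in iHB and -0.01 in iHP. Under upper-quartile scaling it lay at 0.01 in iBEC, -0.12 in iHB and -0.12 in iHP, so the stages still differed under that scaling. Under quantile normalization, which gives all libraries the same distribution, it lay at -0.01 in iBEC, 0.01 in iHB and 0.05 in iHP.

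Markers of other cells are given for the same libraries, and few of them passed the genotype test. Over all tested genes it called 6.2% higher and 3.37% lower. The sum of 10 stellate and fibroblast markers was 2659 to 4653 RPKM in control and 740.3 to 3725 in L1L2_Alb, at 0.35 times the control in iHB, 0.26 and 0.41 in iHP, and 1.40 and 0.63 in iBEC. All 9 tested members of that list were below 0 with a median of -1.02, but none passed, led by Dcn (-1.98, SE 0.77, adjusted p = 0.147) and Col1a2 (-1.18, SE 0.39, adjusted p = 0.0998). White blood cell markers summed to 1507 to 2821 RPKM in control and 769.9 to 3177 in L1L2_Alb with 0 of 8 called, where Mpo differed most (-3.85, SE 1.11, adjusted p = 0.0673), followed by Ptprc (-0.93, SE 0.31, adjusted p = 0.0998). Red blood cell markers were at 5.54 to 249.9 RPKM in control and 2.75 to 47.2 in L1L2_Alb, and 2 of 4 tested fell, Hbb-b2 (-2.44, SE 0.58, adjusted p = 0.0360) and Hbb-b1 (-2.09, SE 0.48, adjusted p = 0.0335). Endothelial markers stayed at 3.17 to 24.3 RPKM in sum with 0 of 3 tested called (Pecam1 at -1.17, SE 0.35, adjusted p = 0.0757, and Kdr at 0.97, SE 0.26, adjusted p = 0.0542). The part of these cells in the claudin values was not tested.

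Hepatocyte and bile duct genes moved as follows in the same fit, beside 6.2% of all tested genes called higher and 3.37% called lower. Of 10 hepatocyte markers, 7 fell and none rose, with a median of -2.02, among them the fatty acid carrier Fabp1 (-2.47, SE 0.59, adjusted p = 0.0368) and the protease inhibitor Serpina1a (-2.42, SE 0.59, adjusted p = 0.0391). Of 9 tested biliary markers, Krt7 (2.17, SE 0.27, adjusted p = 0.00422) and Krt19 (1.31, SE 0.26, adjusted p = 0.0205) rose and 2 fell, with Spp1 at -1.50 (SE 0.34, adjusted p = 0.0306). Cldn4 and Tjp1 thus lay on the same side as Krt7 and Krt19, and Cldn1 and Cldn3 on the other.

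The make-up of the claudins is given as the share of each of the 7 in their summed RPKM. Cldn4 held 39.4% of the sum in control iHB, 51.6% in control iHP and 40.5% in control iBEC. In L1L2_Alb it held 66.8% in iHB, 69.3% and 60.0% in iHP, and 55.3% and 55.6% in iBEC, so all 5 shares were above all 3 control shares. A share also moves with the other claudins: in iHB the RPKM of Cldn4 was 149.7 in control and 157 in L1L2_Alb. The RPKM of Cldn4 overlapped between genotypes and did not pass the test (limma adjusted p = 0.141). How often shares within other sets of genes separate was not computed. The share of Cldn3 was 5.88% to 9.49% in control and 0.299% to 4.57% in L1L2_Alb libraries, which did not overlap either. In iHB the share of Cldn6 was 27.6% in control and 5.25% in L1L2_Alb, that of Cldn7 was 9.68% and 2.85%, and that of Cldn12 was 4.15% and 11.7%. The sum itself was 379 RPKM in control and 235 in L1L2_Alb iHB, 236 against 273 and 253 in iHP, and 102 against 144 and 194 in iBEC, so it did not move in 1 direction. In control iBEC the second largest share was that of Cldn2, at 30.4%, against 8.26% and 14.1% in L1L2_Alb iBEC.

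**Figure D3:**
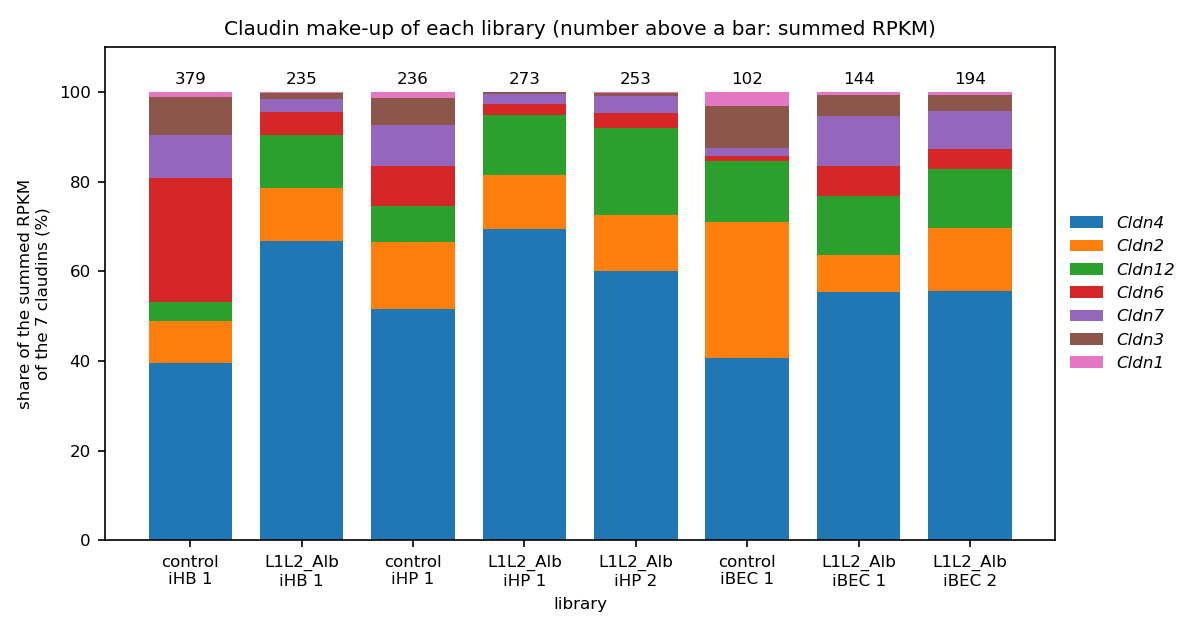
Share (%) of each of 7 claudins in their summed RPKM, 1 bar per library, with the summed RPKM above the bar. Cldn4 takes 39.4% to 51.6% in control and 55.3% to 69.3% in L1L2_Alb libraries, and Cldn6 shrinks from 27.6% in control iHB to 1.05% in control iBEC.

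By rank of RPKM among the 10 genes, Cldn4 was first in every library and Tjp1 second in all 5 L1L2_Alb libraries. Cldn1 was last in every library except control iBEC, where Cldn6 was last and Cldn1 stood at rank 6. Cldn12 moved from rank 9 in control iHB and rank 7 in control iHP to rank 3 or 4 in L1L2_Alb libraries, and was already at rank 4 in control iBEC. Cldn3 went from rank 7, 8 and 5 in control iHB, iHP and iBEC to rank 9 in all L1L2_Alb libraries. With 1 control library at a stage, neighbouring ranks in control cells cannot be set against a spread.

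Between stages, none of the 10 genes passed the test in either genotype-adjusted contrast with iBEC, nor between iHP and iHB. From iHB to iHP limma called 0.0% of tested genes, and 0 of the 10 had an unadjusted p under 0.05, beside 1158 of all genes or 8.63%. From iHB to iBEC 5.72% of genes were called and 3 of the 10 had an unadjusted p under 0.05, beside 25.0%. Cldn4 came closest, at -1.20 (SE 0.29, limma adjusted p = 0.0509), and it passed without iHP replicate 2, without iBEC replicate 2 and with a filter at a mean of 5 RPKM. From iHP to iBEC 4.12% were called and 3 of the 10 had an unadjusted p under 0.05, beside 22.2%, with Tjp1 at -0.95 (SE 0.22, adjusted p = 0.0557), Cldn4 at -1.08 (SE 0.26, adjusted p = 0.0572) and Cldn12 at -0.75 (SE 0.22, adjusted p = 0.0952). In control cells alone, without a test, the difference from iHB to iBEC was -5.67 on the log2 scale for Cldn6, -3.82 for Epcam, -3.71 for Cldn7 and -2.17 for Ocln.

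The L1L2_Alb iBEC and iHP libraries were the only stages with 2 libraries on both sides. Cldn3 rose from iHP to iBEC in L1L2_Alb by 1.73 (SE 0.34, limma adjusted p = 0.0422), beside 3.16% of genes called higher. This call was lost when any 1 of the 4 libraries was left out, and the iHP values of Cldn3 rest on 19 and 51 reads. Of the other 9 genes none passed in either direction (0.507% of all genes were called lower), with Cldn7 at 0.99 (SE 0.31, adjusted p = 0.144), Cldn12 at -0.92 (SE 0.31, adjusted p = 0.162), Cldn4 at -0.86 (SE 0.32, adjusted p = 0.201) and Tjp1 at -0.82 (SE 0.31, adjusted p = 0.213). Over the 10 genes 5 had an unadjusted p under 0.05, beside 18.8% of all. In control cells the single libraries gave a difference of -0.47 for Cldn3 over the same step, the opposite direction.

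Among the other genes of the tight junction, of 33 listed, 30 were tested and 11 rose, none fell, beside 6.2% of all tested genes called higher and 3.37% lower. The median difference was 0.65 beside 0.06 over all tested genes. Pard6b, a subunit of the polarity complex of PAR-3, PAR-6 and atypical protein kinase C, rose by 2.10 (SE 0.19, limma adjusted p = 0.00118), from 13.4 RPKM in control to 77.0 in L1L2_Alb iHB, from 13.9 to 48.2 and 61.8 in iHP, and from 4.66 to 20.1 and 24.8 in iBEC. Jam2, an adhesion molecule of the immunoglobulin family, rose by 2.05 (SE 0.38, adjusted p = 0.0159), and Cgnl1, the junction scaffold paracingulin, by 1.75 (SE 0.25, adjusted p = 0.00639). Both were higher in 5 of 5 libraries. Among the others that rose were the kinases Prkcz and Prkci of that polarity complex, the angiomotins Amotl1 and Amotl2 (which bind YAP), Ildr2, Mpp5 and F11r. The transmembrane relatives of occludin, Marveld2 and Marveld3, did not pass, at -0.46 (SE 0.23, adjusted p = 0.259) and -0.89 (SE 0.40, adjusted p = 0.211), values given here beside Ocln and chosen after they were seen.

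Among 19 other claudin genes listed, 18 were in the table and 6 were tested, the rest lying under a mean of 1 RPKM. The counts for this list and the next 2 stand beside 6.2% of all tested genes called higher and 3.37% lower. In lists this short, 1 called gene says little beside that share. Cldn18, a claudin of stomach and lung, rose by 1.15 (SE 0.30, limma adjusted p = 0.0480) and none fell, with a median of -0.44. It stood at 0.575 RPKM in control and 1.05 in L1L2_Alb iHB, 0.978 against 6.29 and 4.96 in iHP, and 0.283 against 1.24 and 2.54 in iBEC, so it did not exceed 6.29 RPKM in any library. Of 8 genes related to EpCAM or to its cleavage by membrane proteases, 2 rose, with a median of 0.54. Tspan8, a tetraspanin found in complexes with EpCAM and claudin-7, rose by 2.51 (SE 0.32, adjusted p = 0.00418), from 151.9 RPKM to 487 in iHB, from 114 to 451.7 and 770.1 in iHP, and from 18.8 to 162 and 226 in iBEC. Prss8, the protease prostasin, rose by 1.37 (SE 0.31, adjusted p = 0.0330). Of 10 genes of the adherens junction, the belt of cadherins below the tight junction, 1 rose, Mllt4 (afadin, 0.70, SE 0.15, adjusted p = 0.0256), and the median was 0.32.

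As a description over the 8 libraries, which share depth and cell make-up, the log2 values of Cldn1 and Cldn3 had a Pearson correlation of 0.95, those of Cldn4 and Tjp1 of 0.93, those of Ocln and Epcam of 0.90 and those of Cldn6 and Cldn7 of 0.89. Cldn12 ran against Cldn1 and Cldn3, at -0.85 and -0.84. Over all tested genes outside the 10, the most similar to Cldn3 were Tk1 (0.997), C2cd3 (0.994) and Kifc1 (0.989), of which Tk1 is the thymidine kinase of DNA synthesis and Kifc1 a mitotic motor. Tk1 stood at 23.4 RPKM in control iHB and 9.09 in L1L2_Alb iHB, at 16.8 against 6.59 and 7.45 in iHP, and at 13.4 against 12.3 and 12.1 in iBEC, the same course as Cldn3 over a smaller range. The most similar to Cldn1 were Fam217b (0.988), Pold3 (0.987), a subunit of DNA polymerase delta, and Zbtb5 (0.984).

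For Cldn12 the most similar genes were 4933426M11Rik (0.991), Cfl2 (0.989), a cofilin of actin turnover, and Ggta1 (0.986). For Tjp1 they were Pcgf3 (0.984), Odc1 (0.983), the first enzyme of polyamine synthesis, and Sema3e (0.982). Among the genes close to Cldn4 were Rrad (0.987) and Lpcat4 (0.986), and Cldn2 was less closely followed, by Cyb5d1 (0.946), Opa3 (0.938) and Mir3081 (0.931). Among the genes with opposing differences, Cldn6 was closest to 1810030O07Rik (0.979), Nup188 (0.974), a nuclear pore protein, and Zfp516 (0.970). Cldn7 was closest to Gyltl1b (0.962), Hsbp1l1 (0.961) and Elmo3 (0.955), Epcam to Baz2a (0.979), Gal3st1 (0.962) and Tnks (0.962), and Ocln to Elp2 (0.960), Gas5 (0.957) and Mir421 (0.954). The highest of many correlations over 8 libraries are large by selection, and nothing is read from them on control of these genes.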

How the data were processed

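RNA sequencing (TruSeq v2) gave 8 libraries. The authors deposited 1 table of RPKM per gene and library, and the submitters' processing notes name Bowtie 0.12.2 and mm8. The counting method and annotation are not given in the sources used here. The unit was inferred: short genes moved in whole steps, which gave 18436865 to 33229075 reads per library. With 1 length per gene, whole reads came out (within 0.02) for 7 of the 10 genes and not for Cldn7, Cldn12 and Tjp1. No count model was used.

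Of 23471 entries, 4 of 2 repeated symbols were dropped. On the log2(RPKM + 1) of the deposited RPKM, limma 3.58.1 (R 4.3.3) was run for the 13421 genes whose mean reached 1 RPKM (eBayes with trend, stage and genotype, or 1 mean per condition for the difference between stages and for L1L2_Alb iBEC against iHP), with two-sided p adjusted by Benjamini-Hochberg over all of them. The script was tested on simulated data. Within a stage, with 1 control library, values were compared without a test. Named genes are the 10 genes, the 3 largest called differences of each list (the largest 2 where none was called) and the 3 genes most correlated with each of the 10, of which some are not reported here. The 10 genes, the lists and the tests were chosen with earlier results of these data known. Promoter windows are those of RefSeq on GRCm38.p6, found for all 10 genes, and are not on the build of the read mapping. Scaling, pseudocount, filter, variance model and left-out libraries or stages were varied. Figures were drawn with matplotlib 3.10.9 in Python 3.11.15.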

Additional observations from a re-analysis of the deposited data

Results flagged for a closer look

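Of the 10 genes, 4 had every L1L2_Alb library of some stages on the opposite side of its control from those of another stage. The mean log2 difference in iBEC minus that in iHB and iHP was 4.49 for Cldn6, 4.42 for Cldn7 and 1.99 for Ocln. For Epcam the mean in iHP and iBEC minus that in iHB was 2.99. The moderated F test of limma for a difference between stages passed for none of them after adjustment (adjusted p = 0.122, 0.148, 0.613 and 0.264). Each iBEC difference rests on the 1 control iBEC library and each iHB difference on 1 library of both genotypes.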

How the results depend on the processing

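No genes of the 10 were called by the test between stages of the genotype effect under the alternatives run for it (pseudocount, scaling, filter, variance model and each replicate left out). It was not run without a stage or with the mean of the libraries of a condition. For the 2 genes called higher (Cldn12 and Tjp1), the count was 1 under upper-quartile scaling, 1 under quantile normalization, 1 with the mean of the libraries of a condition, 0 with no filter on low values (more genes were tested), 0 without the iHB, the iHP or the iBEC stage, and 0 to 2 when a replicate was left out. For the 2 called lower (Cldn1 and Cldn3), it was 1 with no filter, 1 with a mean of at least 5 RPKM (Cldn1 was then not tested), 1 with the mean of the libraries of a condition, 0 without the iHB or the iHP stage, 4 without the iBEC stage, and 1 to 2 when a replicate was left out. The 4 were Cldn1, Cldn3, Cldn6 (-2.09, limma adjusted p = 0.0221) and Cldn7 (-1.76, adjusted p = 0.0227). Over the alternatives the adjusted p ran from 0.00853 to 0.131 for Cldn1, 0.00522 to 0.240 for Cldn3, 0.0290 to 0.195 for Cldn12 and 0.0339 to 0.186 for Tjp1, and the direction of all 4 was kept. The count from iHB to iBEC was 1 (Cldn4) with a mean of at least 5 RPKM and 0 to 1 when a replicate was left out. The count of genes higher in L1L2_Alb iBEC than iHP (Cldn3, adjusted p from 0.0213 to 0.350) was 0 under quantile normalization, 0 with no filter and 0 when any replicate was left out. Values that changed sign, none of them past the threshold, were Cldn6 (0.43 without iHB, 0.029 without iHP), Cldn7 (0.61 without iHB, 0.50 without iHP, -0.46 to 0.017 when a replicate was left out), Epcam (-0.21 without iBEC) and Ocln (0.036 with a pseudocount of 0.1, 0.45 without iHB, 0.17 without iHP, -0.18 to 0.10 when a replicate was left out). The cause was not tested. Over all genes, 832 higher and 452 lower became 558 and 679 under upper-quartile scaling, with a median of -0.07 in place of 0.06, and 228 and 98 without iHB, 113 and 19 without iHP, 523 and 873 without iBEC and 475 and 211 with no filter.

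With the replicate number as a replicate block over the L1L2_Alb iHP and iBEC libraries, 1 of the 10 genes was called, Cldn3 (limma adjusted p = 0.0213), and over all genes 911 in place of 492. The numbers only name the libraries: the replicate differences of the stages had a correlation of -0.02 across 13421 genes. The 18 reads of Cldn1 in an L1L2_Alb iHP library set the lowest depth behind a value.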
